A study of Mus musculus with 4 samples.

Results

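Small nuclear RNAs (snRNAs) become spliceosomal particles (snRNPs) through a set of dedicated assembly factors, and 10 of their genes are described here in mouse heart: Smn1, Gemin4, Gemin5, Gemin6, Gemin7 and Gemin8 of the SMN complex, Coil of the Cajal body, and Phax, Ncbp1 and Snupn of snRNA export and import. They were chosen by name, as partners of the cap methyltransferase PIMT (gene symbol Tgs1), and all 10 were found among the 23337 gene symbols listed. RNA-seq was carried out on hearts of PIMT fl/fl mice, which carry loxP sites around exons 3 and 4 of the PIMT gene and served as controls, and of csPIMT-/- mice, which carry the same alleles and Cre recombinase under the α-MyHC promoter. Both genotypes were studied at 2 and 6 months of age, on a C57BL6/J background. Each of the 4 groups was 1 library made from the pooled RNA of 5 hearts of male and female mice, so no group had a replicate. The Cre is active in cardiomyocytes from late gestation, and the other cells of the heart keep an intact PIMT gene.

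The assembly of an snRNP passes through both compartments of the cell. A newly made snRNA with a monomethyl cap is bound by the nuclear cap-binding complex, to which Ncbp1 belongs, and by the adaptor Phax, which links it to the exportin Xpo1. In the cytoplasm the SMN complex places a ring of Sm proteins on the snRNA, PIMT then turns its cap into a trimethylguanosine cap, and snurportin (Snupn) recognises this cap and carries the particle back to the nucleus, where it passes through the Cajal body, a structure built on coilin (Coil). PIMT is therefore the enzyme between the SMN complex and Snupn. Loss of SMN1 in humans causes spinal muscular atrophy, and cardiac defects have been described in mouse models of that disease.

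Gemin6 and Gemin7 form a pair that resembles Sm proteins inside the SMN complex, and the RNA of Gemin7 was higher and that of Gemin6 lower in both csPIMT-/- libraries than in both controls (values below). Their promoter windows are shown for that reason, from 250 bases before to 50 bases after the RefSeq start site, 5′ to 3′ on the gene's strand, with each GC box (GGGCGG, searched on both strands) in capitals. The first lies on the minus strand at chr7:19573294-19573593 and the second on the plus strand at chr17:80224201-80224500 of GRCm38.p6. The Gemin7 window lies inside the gene as annotated by GENCODE (chr7:19564946-19577595, minus strand), so GENCODE places the 5′ end of Gemin7 further upstream than RefSeq. No window was given at that upstream end. The base composition and GC boxes given for Gemin7 hold for its RefSeq start only.
Gemin7: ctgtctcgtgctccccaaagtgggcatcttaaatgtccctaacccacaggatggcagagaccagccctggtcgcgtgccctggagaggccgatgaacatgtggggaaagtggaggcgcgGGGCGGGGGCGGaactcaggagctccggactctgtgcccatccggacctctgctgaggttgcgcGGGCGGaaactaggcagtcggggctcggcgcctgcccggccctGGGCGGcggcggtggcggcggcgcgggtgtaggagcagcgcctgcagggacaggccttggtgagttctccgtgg
Gemin6: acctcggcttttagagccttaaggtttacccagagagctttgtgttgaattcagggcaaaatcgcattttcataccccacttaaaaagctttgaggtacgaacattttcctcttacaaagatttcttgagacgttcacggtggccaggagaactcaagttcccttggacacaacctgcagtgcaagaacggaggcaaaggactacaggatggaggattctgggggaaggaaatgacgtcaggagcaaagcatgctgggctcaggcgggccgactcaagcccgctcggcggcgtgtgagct
The Gemin7 window had a GC content of 68.7%, 26 CpG dinucleotides and 4 GC boxes. The Gemin6 window had a GC content of 51%, 13 CpG dinucleotides and no GC box. Over the first RefSeq window listed for each gene, the median GC content was 52.7% and the median number of CpG dinucleotides 7. A GC box occurred in at least 1 window of 38.2% of 27025 genes. RefSeq windows were given for 9 members, of which 7 had a GC box in at least 1 window. These matches are letters in the sequence and no binding was measured.

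The libraries held between 29823073 and 40705783 reads on genes, with 17169 to 17349 genes detected in each. Tgs1, the targeted gene, had normalised counts of 579.7 and 816.2 in the control hearts and 160.3 and 162.3 in the csPIMT-/- hearts at 2 and 6 months, and fell by 2.09 ± 0.31 (SE) on the log2 scale over both ages (limma, adjusted p = 0.0184). Cardiomyocyte markers were high in every library (8 of 8 detected, summed normalised counts of 1140569 to 1483535). The libraries also differed in markers of other cells. The atrial list summed to 2560 and 50594 in the controls and 132951 and 29128 in the csPIMT-/- hearts at 2 and 6 months. In the same order the fibroblast list summed to 276667 and 142298 against 190822 and 202442, the endothelial list to 57863 and 41112 against 37296 and 42089, the leukocyte list to 7390 and 19410 against 22485 and 29155, and the brown fat list to 1905 and 1561 against 6186 and 2915. Lung and airway markers summed to 1.73 and 8.79 against 1160 and 17.7, with 4 of the 5 markers (Bpifa1, Scgb1a1, Sftpc and Sftpa1) at 0 in the control of 2 months and Sftpb and Sftpa1 at 0 in the control of 6 months. The part of these differences in the results below was not tested. In whole tissue, fewer cells of a type and less RNA per cell cannot be told apart.

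The question was whether RNA of the assembly factors differed in hearts that lack PIMT in cardiomyocytes. At 6 months Phax and Gemin6 RNA stood at less than 0.5 of the control level and Gemin7 RNA at more than 2 times that level, and at 2 months only Gemin7 passed a 2-fold difference. Over both ages Gemin7 rose and Phax fell in the limma fit, and the other 8 members did not pass the test. Neither call held once a trend with GC content, described below, was subtracted (limma, adjusted p = 0.235 for Gemin7 and 0.122 for Phax). No gene at all was called in that fit, Tgs1 included, so the lost calls are not particular to Gemin7 and Phax. The log2 difference went from 1.21 to 0.49 for Gemin7 and from -1.17 to -1.27 for Phax. The members did not move as a group, since 5 of them were lower in both csPIMT-/- libraries than in both controls, 4 were higher in both, and Gemin8 overlapped. Such a separation is common here, as 71.1% of all tested genes had no overlap between the genotypes, 35.9% with both csPIMT-/- libraries lower and 35.2% with both higher.

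**Figure D1:**
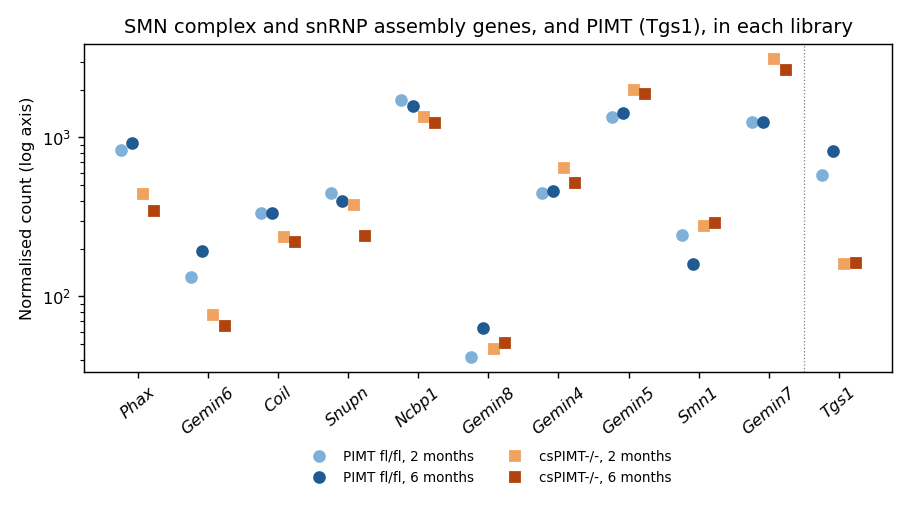
Normalised count (log axis) of the 10 members and of Tgs1 in each of the 4 libraries, with circles for PIMT fl/fl and squares for csPIMT-/-, and members ordered by their log2 genotype difference. Each point is 1 library of 5 pooled hearts. The squares lie below both circles for Phax, Gemin6, Coil, Snupn and Ncbp1 and above both for Gemin4, Gemin5, Smn1 and Gemin7.

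Within the SMN complex, Smn1, which encodes the protein the complex is named after, lies at chr13:100124852-100137690 on the plus strand (GRCm38, 9 exons). Its normalised counts were 243.1 and 160.9 in the controls and 278.6 and 290.3 in the csPIMT-/- hearts at 2 and 6 months. Both csPIMT-/- libraries were above both controls, and the control of 6 months stood lowest. The ratio of csPIMT-/- to control was 1.15 at 2 months (95% Clopper-Pearson interval 0.958 to 1.37) and 1.80 at 6 months (1.49 to 2.19). These intervals hold counting error only and no difference between mice. The 2 controls differed by a ratio of 0.662 (0.546 to 0.800), and with the control of the other age the ratios of Smn1 became 1.73 at 2 months and 1.19 at 6 months. Over both ages Smn1 did not pass the test (log2 difference 0.52 ± 0.36, adjusted p = 0.304).

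Gemin5, the subunit that recognises the snRNA, lies at chr11:58120002-58168539 on the minus strand with 28 exons. It had normalised counts of 1347 and 1432 in the controls and 1980 and 1870 in the csPIMT-/- hearts. Both csPIMT-/- libraries were higher and the controls lay close together. The ratios were 1.47 (1.37 to 1.58) at 2 months and 1.31 (1.22 to 1.40) at 6 months, and the log2 difference of 0.47 ± 0.22 did not pass (adjusted p = 0.154). Gemin4, a further subunit of the complex, lies at chr11:76210571-76217664 on the minus strand and had normalised counts of 448.2 and 457.3 in the controls and 644.8 and 515.0 in the csPIMT-/- hearts. The csPIMT-/- library of 2 months was the highest and that of 6 months stood little above the controls. Its ratios were 1.44 (1.27 to 1.63) and 1.13 (0.994 to 1.28), with a log2 difference of 0.35 ± 0.28 (adjusted p = 0.373). The value of Gemin4 is uncertain because 94.9% of the 50-base windows in its transcript also occur in transcripts of other genes, Glod4 on the same strand among them, so that its reads could be counted elsewhere or dropped.

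Gemin7 lies at chr7:19564946-19577595 on the minus strand with 3 exons, and had normalised counts of 1243 and 1245 in the controls and 3116 and 2662 in the csPIMT-/- hearts. The controls were almost equal, and both csPIMT-/- libraries were far above them. Ratios were 2.51 (2.35 to 2.68) at 2 months and 2.14 (2.00 to 2.28) at 6 months, against 1.002 (0.931 to 1.08) between the controls. Gemin7 rose by 1.21 ± 0.21 on the log2 scale over both ages (adjusted p = 0.0224), and 90.5% of all tested genes had a lower difference. The call was lost without the control of 2 months (adjusted p = 0.0597) and without that of 6 months (0.0682), while the log2 difference stayed at 1.21 in both fits. Exons of Gemin7 overlap the antisense gene Zfp296 by 263 bases, and whether the counting used strand is not given in the sources used here.

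Gemin6, the partner of Gemin7, lies at chr17:80224441-80228497 on the plus strand, also with 3 exons. Its normalised counts were 131.5 and 191.7 in the controls and 76.4 and 65.5 in the csPIMT-/- hearts, from 62 to 218 reads per library. Both csPIMT-/- libraries were below both controls. The ratio was 0.581 (0.425 to 0.786) at 2 months and 0.342 (0.254 to 0.454) at 6 months, while between the controls it was 1.46 (1.18 to 1.81). The log2 difference of -1.15 ± 0.44 was close in size to that of Gemin7 but did not pass after adjustment (adjusted p = 0.105). Of its 50-base windows 11.2% also occur in pseudogene transcripts (Gemin6-ps and Gm3678).

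Gemin8, which links the Gemin6 and Gemin7 pair to SMN, lies at chrX:166170454-166190512 on the plus strand and was the least abundant member, with 38 to 72 reads per library. Its normalised counts were 41.5 and 63.3 in the controls and 46.9 and 51.0 in the csPIMT-/- hearts. The csPIMT-/- values lay between the controls. The ratios of 1.13 (0.717 to 1.76) and 0.805 (0.548 to 1.17) had opposite directions and both intervals included 1. These intervals hold counting error only, so they set no limit on the genotype difference that could be detected. The controls themselves differed by a ratio of 1.52 (1.04 to 2.24). The log2 difference was -0.07 ± 0.52 (adjusted p = 0.927). Of the 50-base windows of Gemin8, 15.2% also occur in transcripts of other genes, which adds to the uncertainty of so few reads.

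Among the genes of snRNA traffic, Phax lies at chr18:56562443-56587712 on the plus strand with 5 exons. It had normalised counts of 832.4 and 926.1 in the controls and 441.4 and 344.4 in the csPIMT-/- hearts. Both csPIMT-/- libraries were well below both controls, and the library of 6 months was the lowest. The ratio was 0.530 (0.468 to 0.599) at 2 months and 0.372 (0.328 to 0.421) at 6 months, against 1.11 (1.02 to 1.22) between the controls. Phax fell by 1.17 ± 0.28 on the log2 scale over both ages (adjusted p = 0.0383), and 18% of all tested genes had a lower difference. This call was lost without the control of 2 months (adjusted p = 0.0994), the control of 6 months (0.141) or the csPIMT-/- library of 6 months (0.0703), with log2 differences of -1.25, -1.09 and -0.99. It held without the csPIMT-/- library of 2 months, which had the highest sums of lung, atrial and brown fat markers (-1.35, adjusted p = 0.0428), as did the call of Gemin7 (1.10, adjusted p = 0.0412). Exons of Phax overlap the antisense gene Aldh7a1 by 300 bases.

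Ncbp1, the large subunit of the cap-binding complex, lies at chr4:46138613-46172403 on the plus strand with 23 exons. Its normalised counts were 1721 and 1579 in the controls and 1336 and 1233 in the csPIMT-/- hearts. Both csPIMT-/- libraries were lower at each age, by nearly the same ratio of 0.777 (0.720 to 0.837) at 2 months and 0.781 (0.725 to 0.841) at 6 months. The ratio between the controls was 0.917 (0.860 to 0.978), and the log2 difference of -0.36 ± 0.22 did not pass (adjusted p = 0.249).

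Snupn, the import adaptor that reads the cap made by PIMT, lies at chr9:56950878-56983206 on the plus strand with 9 exons. Its normalised counts were 446.5 and 399.3 in the controls and 374.8 and 240.3 in the csPIMT-/- hearts. The csPIMT-/- library of 2 months lay just under the controls and that of 6 months clearly under them. The ratios were 0.839 (0.726 to 0.969) and 0.602 (0.511 to 0.707), and the log2 difference was -0.49 ± 0.31 (adjusted p = 0.272). Coil lies at chr11:88970252-88991613 on the plus strand with 11 exons, and had normalised counts of 332.3 and 333.3 in the controls and 238.0 and 218.5 in the csPIMT-/- hearts. The controls were nearly equal, and both csPIMT-/- libraries were lower. Its ratios were 0.716 (0.599 to 0.854) and 0.655 (0.551 to 0.778), with a log2 difference of -0.54 ± 0.31 (adjusted p = 0.235).

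Counted over the members, the ratio passed 2-fold at 2 months in 0 members downward and in 1 upward, whereas 22.4% of all tested genes were below a ratio of 0.5, 17.1% above 2 and 39.5% either. At 6 months it did so in 2 members downward and 1 upward, against 24.8% and 16.8% of all genes and 41.6% in either direction. Between the 2 controls no member passed 2-fold in either direction, against 4.62% of all genes downward and 8.76% upward. The direction was the same at both ages in 9 of 10 members, the exception being Gemin8, and in 79.2% of all genes compared at both ages. The counting interval excluded 1 for 8 members at each age, against 84.1% of all genes at 2 months and 85.3% at 6 months, and for 5 members between the controls, against 68.9%. In the limma fit 1 member was called lower and 1 higher, while 17.5% of all 14847 tested genes were called lower and 11% higher. The shares of members past 2-fold or called by limma are thus near or under those of all genes. With 4 libraries the fit had 1 residual degree of freedom, so its errors rest largely on variance shared across genes.

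**Figure D2:**
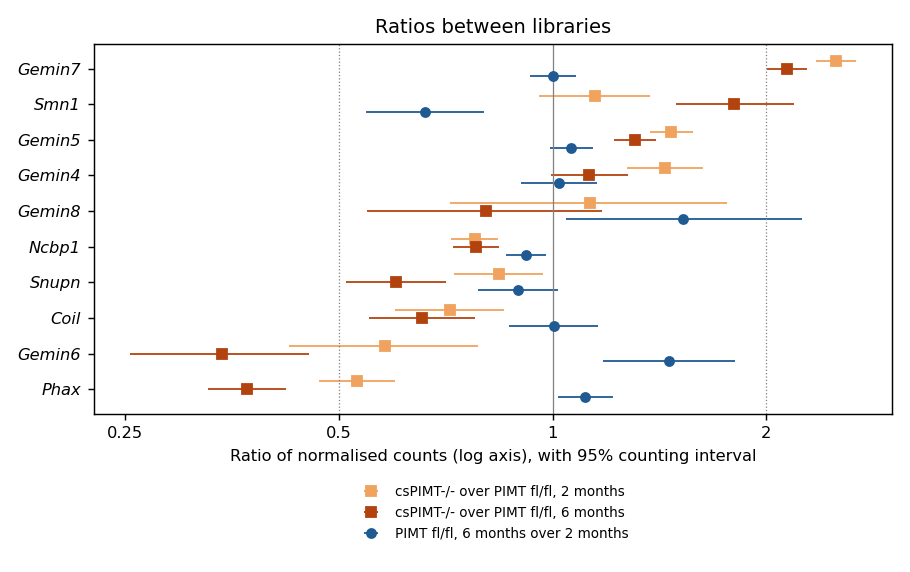
Ratio of normalised counts (log axis) for each member, with 95% counting intervals as bars: csPIMT-/- over PIMT fl/fl at 2 months (light squares) and 6 months (dark squares), and PIMT fl/fl of 6 months over 2 months (circles). Dotted lines mark ratios of 0.5 and 2. Gemin7 lies beyond 2 at both ages, Phax and Gemin6 lie under 0.5 at 6 months, and no circle lies beyond either line.

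Levels of different genes were compared per kilobase of transcript. In the controls Gemin7 was the most abundant member, with a mean of 1216 normalised counts per kb, followed by Ncbp1 at 548.1, Phax at 452.8, Snupn at 304 and Gemin5 at 223.6. Then came Smn1 at 165.3, Gemin6 at 142.5, Gemin4 at 127.9, Coil at 106.7 and Gemin8 at 27.2. The control ranges of Smn1 and Gemin6 overlapped, as did those of Gemin6 and Gemin4, so these neighbours could not be ordered. The place of Gemin4 is uncertain in any case, since 94.9% of its 50-base windows also occur in transcripts of other genes. In the csPIMT-/- hearts Phax stood at 227.3 and 177.3 normalised counts per kb and took rank 6 at 2 months and rank 5 at 6 months, and Gemin5 took rank 3 at both ages with 318.7 and 300.9. Gemin7 and Ncbp1 kept the first and the second rank in every library.

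Ratios of partners within a library do not depend on how the libraries were scaled. Gemin7 exceeded Gemin6 per kilobase by a ratio of 10.5 and 7.20 in the controls and 45.2 and 45.0 in the csPIMT-/- hearts. The ratio in csPIMT-/- hearts was thus 4.31 times that of the control at 2 months and 6.25 times at 6 months. Ncbp1 over Ncbp2, its small partner in the cap-binding complex, gave 2.75 and 2.05 in the controls and 3.69 and 5.09 in the csPIMT-/- hearts. Smn1 over Sip1, the symbol listed for Gemin2, the subunit that holds the Sm ring on SMN, gave 1.09 and 0.699 in the controls and 1.48 and 2.40 in the csPIMT-/- hearts. All 3 ratios were higher in both csPIMT-/- libraries than in both controls. The pairs were picked by name, and no share over other gene pairs was computed. Among single genes, 71.1% of those tested had no overlap between the genotypes in either direction, which is not a share of gene pairs. The ratio of Gemin7 over Gemin6 restates the higher Gemin7 and the lower Gemin6 given above. Likewise, the ratio of Smn1 over Sip1 restates a higher Smn1 and a lower Sip1. Sip1 had normalised counts of 289 and 299 in the controls and 244.1 and 157.1 in the csPIMT-/- hearts. The separation of these pairs was thus fixed by the single genes. Relative to the trend with GC content described below, the ratio of Gemin7 over Gemin6 was 1.68 and 2.21 times that of the control at 2 and 6 months, whereas that of Ncbp1 over Ncbp2 was 0.894 and 1.47 times and that of Smn1 over Sip1 0.837 and 1.87 times, so the latter pairs turned direction at 2 months. These are single values per library, and levels per kilobase assume the annotated transcript.

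**Figure D3:**
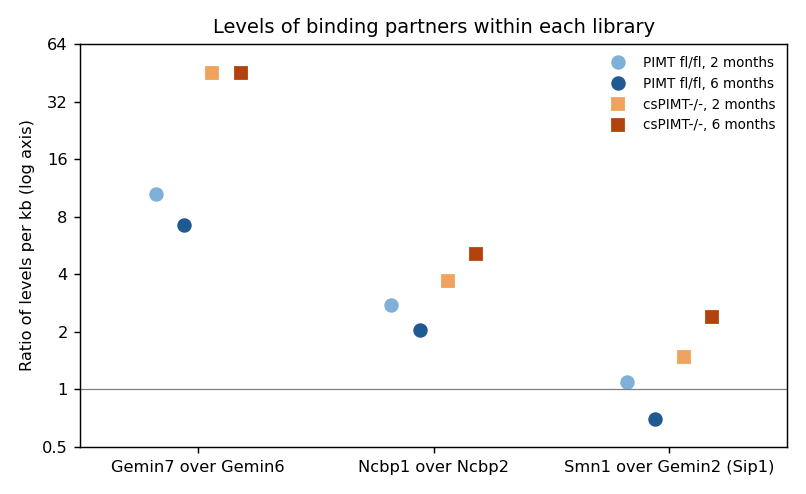
Ratio of the levels per kilobase (log axis) of 3 pairs of binding partners within each library, with circles for PIMT fl/fl and squares for csPIMT-/-. Gemin7 over Gemin6 lies at 45.2 and 45.0 in the csPIMT-/- hearts and at 10.5 and 7.20 in the controls.

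Across all genes the ratio of csPIMT-/- to control was higher for GC-rich transcripts, and Spearman's rho was 0.595 over 14936 genes at 2 months and 0.621 over 15000 genes at 6 months, and -0.276 over 14908 genes between the controls. Genes share their library here and are not independent, so these values are a description. The members ranged from 45.9% GC (Gemin6) to 58.7% (Gemin7). Genes with the GC content of Gemin7 had a trend ratio of 1.63 at 2 months and 1.66 at 6 months, and relative to that trend the ratio of Gemin7 was 1.54 and 1.28. Genes with the GC content of Phax (50.9%) had a trend ratio of 1.05 and 1.10, and relative to the trend Phax stood at 0.503 and 0.338, as far from the control as before. Gemin6 stood at 0.912 and 0.580 relative to the trend, Coil at 0.640 and 0.557, Smn1 at 1.15 and 1.75, and Gemin5 at 1.28 and 1.08. Gemin4 stood at 1.20 and 0.891, Ncbp1 at 0.928 and 0.933, Snupn at 0.971 and 0.693, and Gemin8 at 1.47 and 1.07. With the trend subtracted before the fit, no gene at all was called by limma (3558 of 14640 genes at an unadjusted p below 0.05, lowest adjusted p = 0.1). The log2 differences were then 0.49 for Gemin7 (adjusted p = 0.235), -1.27 for Phax (adjusted p = 0.122) and -0.76 for Tgs1 (adjusted p = 0.21), so the fit without a call also did not call the deleted gene.

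**Figure D4:**
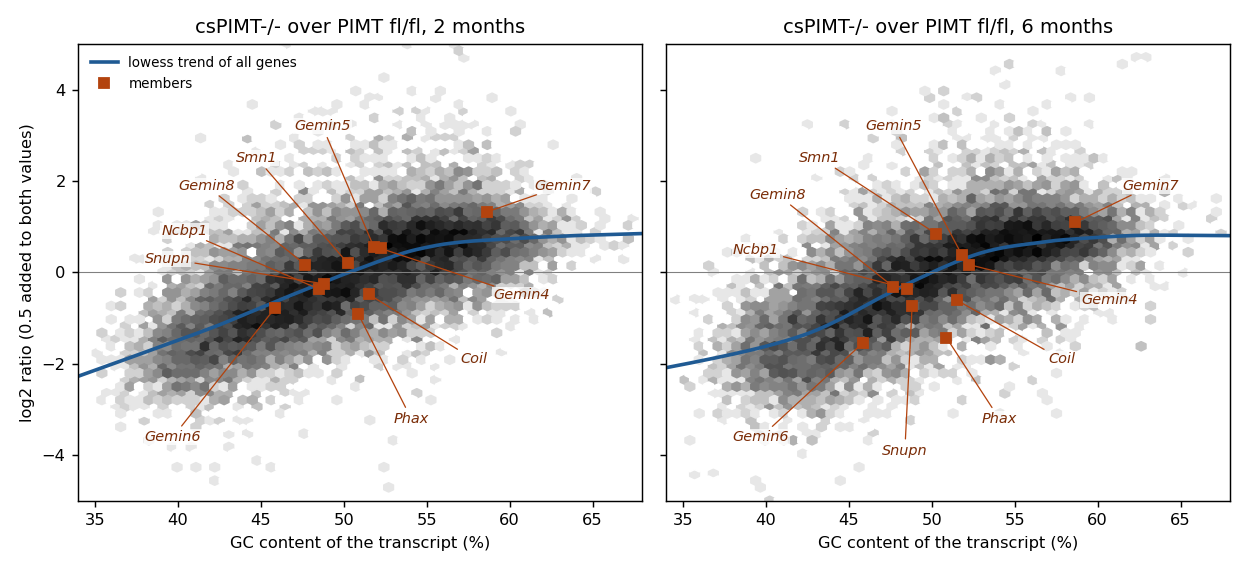
log2 ratio of csPIMT-/- over PIMT fl/fl (0.5 added to both values) against GC content of the transcript at 2 months (left) and 6 months (right). Grey shading shows the density of all genes on a log scale, the line their lowess trend, and squares the members; 150 and 101 genes lie outside the axes. Gemin7 and Gemin6 lie on the side of 0 that the trend takes at their GC content, and Phax lies below the trend at both ages.

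The members were set beside 7 lists of other genes of snRNP and snoRNP biogenesis, of which 98 genes were tested. In these lists 24 genes were called lower and 9 higher, beside 17.5% and 11% of all tested genes, and the median log2 difference was -0.16, against 0.03 over all genes. Calls fell in every list and none was uniform in direction except export and import, where all calls were lower. The counts depended on each library, with 9 lower and 1 higher without the control of 2 months, 1 and 2 without the control of 6 months, 15 and 4 without the csPIMT-/- library of 2 months, and 14 and 4 without that of 6 months.

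In the list of snRNA export and import, 3 of 10 genes fell, none rose and 7 did not pass, with a median log2 difference of -0.57. Xpo1, the exportin that Phax binds, had normalised counts of 3335 and 4922 in the controls and 827.3 and 1086 in the csPIMT-/- hearts. Both csPIMT-/- libraries lay far under both controls, with ratios of 0.248 and 0.221. Xpo1 fell by 2.09 ± 0.21 on the log2 scale (adjusted p = 0.0163). Relative to the GC trend its ratios were 0.668 and 0.658, and its log2 difference was -0.59 without a call (adjusted p = 0.179). 1200014J11Rik (Ncbp3), a cap-binding protein, fell by 1.03 ± 0.24 (adjusted p = 0.0358). Ncbp2 did not pass, with ratios of 0.579 and 0.314 (log2 difference -1.23 ± 0.36, adjusted p = 0.0593). Ncbp1, Ncbp2, Phax and Xpo1, which together carry the snRNA out of the nucleus, were each lower in both csPIMT-/- libraries than in both controls, as were 35.9% of all tested genes.

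In the list of other SMN complex and methylosome genes, 1 of 8 fell, 1 rose and 6 did not pass, with a median of 0.11. Strap, an SMN-binding protein, fell by 1.20 ± 0.24 (adjusted p = 0.027). Prmt7, an arginine methyltransferase that acts on Sm proteins, rose by 0.96 ± 0.23 (adjusted p = 0.039). In the list of Sm ring proteins, 2 of 7 tested genes fell, 1 rose and 4 did not pass, with a median of -0.32. Snrpd1 fell by 1.42 ± 0.33 (adjusted p = 0.0355) and Snrpe by 1.18 ± 0.31 (adjusted p = 0.048), while Snrpd2 rose by 0.86 ± 0.20 (adjusted p = 0.037). Relative to the GC trend none of these 3 ring genes passed, with differences of -0.25 for Snrpd1 (adjusted p = 0.635), 0.14 for Snrpe (adjusted p = 0.813) and 0.56 for Snrpd2 (adjusted p = 0.191).

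Among the proteins specific to 1 kind of snRNP, 4 of 20 fell, 1 rose and 15 did not pass, with a median of 0.28. Snrpb2, of the U2 particle, fell by 1.98 ± 0.29 (adjusted p = 0.0179), and Rnpc3, of the minor spliceosome, by 1.87 ± 0.30 (adjusted p = 0.0196), whereas Snrnp25, also of the minor spliceosome, rose by 1.36 ± 0.32 (adjusted p = 0.0362). Relative to the GC trend the difference of Rnpc3 turned to 0.12 (adjusted p = 0.812). Of the Lsm proteins, relatives of the Sm proteins, 1 of 11 fell, 2 rose and 8 did not pass, with a median of 0.04. Lsm14a fell by 1.003 ± 0.22 (adjusted p = 0.031), and Lsm4 rose by 0.996 ± 0.21 (adjusted p = 0.0301) and Lsm10 by 1.34 ± 0.32 (adjusted p = 0.0389).

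In the list of snRNA transcription and 3′ end processing, 7 of 20 genes fell, 1 rose and 12 did not pass, with a median of -0.59. Narg2 (Ice2), of the little elongation complex, fell by 1.88 ± 0.35 (adjusted p = 0.0238), and Snapc5, of the complex that binds snRNA promoters, by 1.79 ± 0.38 (adjusted p = 0.0308). Snapc2, of that same complex, rose by 1.09 ± 0.23 (adjusted p = 0.0298). In the list of Cajal body and snoRNP genes, 6 of 22 fell, 3 rose and 13 did not pass, with a median of -0.21. The 6 include Tgs1 itself and Nop58, a core protein of C/D snoRNPs, which fell by 2.05 ± 0.26 (adjusted p = 0.0163). Pih1d1, of the complex that helps assemble snoRNPs, rose by 1.55 ± 0.23 (adjusted p = 0.0181), and Nhp2, a core protein of H/ACA particles, by 1.30 ± 0.25 (adjusted p = 0.0259). Their partners did not all rise. Of the other H/ACA core proteins, Dkc1 fell by 2.02 ± 0.31 (adjusted p = 0.0187), while Gar1 (-0.65) and Nop10 (0.26) did not pass. In the complex of Pih1d1, Rpap3 fell by 1.25 ± 0.29 (adjusted p = 0.0362), while Ruvbl1 (0.39) and Ruvbl2 (0.37) did not pass.

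Relative to the GC trend, the median of the export and import list was -0.39, that of transcription and 3′ end processing -0.09, and that of the Sm ring 0.14. The median GC content of these lists was 47.9%, 49.1% and 46.4%, against 50.3% over all genes. With the trend subtracted, the log2 difference of every called gene named from the lists was smaller in size, and none stayed called. It was -0.36 for Snrpb2, -0.25 for Strap, -0.61 for Nop58, -0.61 for Narg2, 0.26 for Lsm4 and 0.38 for Snapc2.

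**Figure D5:**
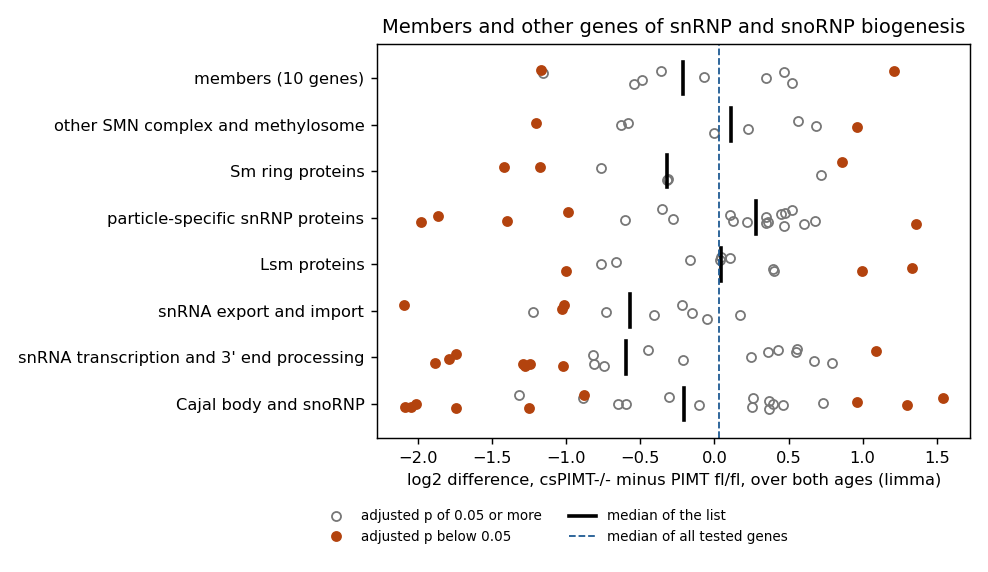
log2 difference of csPIMT-/- minus PIMT fl/fl over both ages (limma) for each tested gene of the 10 members and the 7 other lists. Filled points have an adjusted p below 0.05, short bars are list medians, and the dashed line is the median of all tested genes (0.03). Filled points lie on both sides of the dashed line in every list except snRNA export and import.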

How the data were processed

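The authors extracted RNA from heart tissue and sequenced oligo-dT selected, strand-specific TruSeq libraries as single 50-base reads. They trimmed adapters, filtered out ribosomal RNA, mapped the remaining reads to mm10 (STAR) and counted them per gene with htseq-count (HTSeq 0.6.1p1 in the submitters' processing notes) and a UCSC annotation. The deposited signal is a normalised count per gene symbol, which is reads divided by a size factor, and poly(A) selection, shared sequence and GC content can each change it. In every library 100% of values were whole multiples of the smallest value (tolerance 1e-06 reads), so reads were recovered for intervals and count models.

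Members and lists were chosen with earlier results of these data known. All members were named, Tgs1 was added, and from each other list up to 2 called genes with the lowest and up to 2 with the highest difference were named. Of the 102 genes on the other lists 99 were found (not matched by symbol: Lsm8, Asun and Vwa9), and Snrpn was too low to test. Xpo1, Ncbp2 and Sip1 were also described as partners of members. Dkc1, Gar1, Nop10, Rpap3, Ruvbl1 and Ruvbl2 were described beside Nhp2 and Pih1d1, with their values known.

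Ratios were taken between libraries with at least 10 reads in 1 of them, with Clopper-Pearson intervals at 95% and, for counts past 2-fold, 0.5 added to both values on the log2 scale. Genotype was tested with limma (version 3.58.1) with a mean trend of the variance on log2(normalised count + 1), with age as a covariate, for genes with at least 10 normalised counts in 2 libraries. p-values are two-sided and adjusted after Benjamini and Hochberg over 14847 genes, with a threshold of 0.05. Fold changes on this scale understate those of low genes. Since each group was 1 pool, no p-value holds the spread between replicate pools. The p-values set the genotype difference against the departure of 4 libraries from additive genotype and age, combined with variance shared across genes. Alternatives used edgeR (version 4.0.16) and DESeq2 (version 1.42.0) on recovered reads, TMM scaling, other pseudocounts and filters, no age term, no variance trend, a subtracted lowess trend on GC content (span 0.3) and each library left out. edgeR called 2521 genes lower and 1637 higher. GC content, length and coordinates came from GENCODE M21 (GRCm38), matched by symbol for 97.7% of genes, and promoters from RefSeq (GRCm38.p6). No batch or date is given.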

Additional observations from a re-analysis of the deposited data

Results flagged for a closer look

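Gemin8 was the only member with opposite directions at the 2 ages. Its ratio of csPIMT-/- to control was 1.128 at 2 months and 0.805 at 6 months. The difference between the ages was not tested, and both counting intervals (0.717 to 1.76 and 0.548 to 1.17) included 1.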

How the results depend on the processing

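With the GC trend subtracted, 0 members passed 2-fold upward at 2 months and 0 at 6 months, 1 passed downward at 6 months, and limma called 0 members and 0 other list genes in either direction. Over all genes, 2146 of 14936 then passed upward at 2 months and 2023 of 15000 at 6 months. Downward, 1907 of the 15000 passed at 6 months, and limma called 0 of 14640 genes. Without a mean trend of the variance limma also called 0 members and 0 other list genes in either direction (5965 of 14847 genes at an unadjusted p below 0.05, lowest adjusted p = 0.0654). With the control of the other age, 2 members were below a ratio of 0.5 at 2 months and 1 at 6 months, and with both controls averaged 1 was below it at 2 months. Over all genes, 3789 of 15171 and 3241 of 15209 were below 0.5 at 2 and 6 months with the control of the other age. With both controls averaged, 3776 of 15646 were below it at 2 months. Leaving out 1 library at a time, with genotype alone in the model and the lone library assumed to vary like the others, gave 0 to 1 members called lower and 0 to 1 higher, and 1 to 15 other list genes lower and 1 to 4 higher. The log2 difference of Gemin8 reversed to 0.34 with the GC trend subtracted (adjusted p = 0.696) and to 0.23 without the control of 6 months (adjusted p = 0.862), and leaving out 1 library at a time gave it values of -0.37 to 0.23. With the GC trend subtracted Snrpe reversed to 0.14, Rnpc3 to 0.12 and Rpph1 to -0.0845. Of the 19 other list genes named beside Tgs1, none changed direction in another alternative, 0 kept the call with the GC trend subtracted or without a variance trend, and 3 to 13 kept it when 1 library was left out. In 14 alternatives Gemin7 was called in 10 (log2 differences of 0.49 to 1.32, adjusted p = 0.000885 to 0.235), Phax in 9 (-1.35 to -0.99, adjusted p = 0.00952 to 0.141) and Tgs1 in 11 (-2.33 to -0.76, adjusted p = 8.11e-06 to 0.21). TMM, other pseudocounts and filters, the fit without age, edgeR and DESeq2 each called 1 member lower and 1 higher. The cause of these changes was not tested, beyond the fewer libraries of the fits that leave 1 out. No paired analysis by replicate number was possible because the labels number no replicates. The age term of the model sets the genotypes side by side within each age. Over all genes the leave-out fits called 366 to 1882 lower and 274 to 1082 higher.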

Other observations

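Small nuclear and nucleolar RNAs were also listed by symbol. Most snoRNAs of mammals are cut from introns and carry no trimethylguanosine cap. These groups were chosen after the data had been seen, and poly(A) selection and reads of 50 bases measure short RNAs without a poly(A) tail poorly. Of 31 tested H/ACA snoRNAs (symbols starting with Snora), 7 were called higher and 0 lower by limma, with a median log2 difference of 0.93 (1.25 relative to the GC trend), and 23 were higher in both csPIMT-/- libraries than in both controls, against 35.2% of all tested genes. Of 7 tested scaRNAs, the guide RNAs of the Cajal body, 4 were called higher and 0 lower (median 0.81). Of 37 tested C/D snoRNAs, 1 was called higher and 0 lower (median 0.53). Over all tested genes 11% were called higher and 17.5% lower, and with the GC trend subtracted no gene was called. Between the controls the median ratio of 6 over 2 months was 0.632 for the H/ACA snoRNAs, so 2 pools of the same genotype also differed.

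Scarna2 had normalised counts of 1019 and 1019 in the controls and 3234 and 2556 in the csPIMT-/- hearts at 2 and 6 months (log2 difference 1.50 ± 0.22, adjusted p = 0.0182). Snora74a had 1562 and 1235 against 4466 and 4206 (1.64 ± 0.21, adjusted p = 0.0163). Rnu11, the U11 snRNA of the minor spliceosome, had 424 and 236.6 against 971.5 and 515 (1.16 ± 0.27, adjusted p = 0.0365), and its call was lost when any 1 of the 4 libraries was left out (log2 differences of 0.70 to 1.61, adjusted p = 0.0706 to 0.338). The call of Scarna2 was lost without the control of 6 months (adjusted p = 0.051). Rnu12, the U12 snRNA, had 2194 and 822.3 against 2700 and 2092 and did not pass (0.82 ± 0.31, adjusted p = 0.105). The csPIMT-/- libraries were above both controls for Scarna2, Snora74a and Rnu11, while for Rnu12 the csPIMT-/- library of 6 months lay below the control of 2 months. Rmrp and Rpph1, RNAs made by RNA polymerase III that carry no trimethylguanosine cap, were also higher in both csPIMT-/- libraries without passing the test. Rmrp had 28268 and 20869 against 44694 and 43295 (0.86 ± 0.24, adjusted p = 0.054), and Rpph1 had 36049 and 31039 against 61906 and 50664 (0.74 ± 0.24, adjusted p = 0.0694; -0.0845 relative to the GC trend). Whether the share of RNA without a poly(A) tail differed between libraries was not tested.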
